A study of Arabidopsis thaliana with 6 samples.

Results

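The genes described here are 10 cold-regulated (COR) and dehydration-induced genes of Arabidopsis thaliana, listed by locus: COR15A (AT2G42540), COR15B (AT2G42530), COR78 (AT5G52310), COR414-TM1 (AT1G29395), COR47 (AT1G20440), ERD10 (AT1G20450), LTI30 (AT3G50970), KIN1 (AT5G15960), KIN2 (AT5G15970) and RAB18 (AT5G66400). They were chosen with earlier results of these data known, so their shares beside those of all loci are description only. All 10 had a probe among the 28324 loci of the array, and all 10 entered the test. RNA was measured on 6 single-colour Agilent arrays, with 2 biological samples, each on its own array, from each of 3 genotypes: plants with the ore15-1D allele, plants with the ore15-2 allele, and the wild type Col. Every group was grown on soil for 13 days under 16 h light and 8 h dark, and leaf 3 or 4, labelled as 4 days old, was taken 5 h after lights on. The labels give no cold, drought or hormone treatment, so all levels below are those of leaves in ordinary growth. ORE15 (AT1G31040) belongs to the PLATZ proteins, zinc-binding factors found in plants. Of its alleles, ore15-1D is known to be dominant with raised expression and ore15-2 to lack function, and 1 line stands for each.

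COR genes are the output of the cold acclimation pathway. In Arabidopsis the CBF transcription factors (also called DREB1) bind the C-repeat or dehydration-responsive element in COR promoters within hours of chilling, and DREB2 factors bind the same element under drought and heat. Abscisic acid acts through a second route, in which PYR/PYL receptors inhibit PP2C phosphatases and so release SnRK2 kinases that activate ABF factors. Most of the proteins made, though not the membrane-spanning COR414-TM1, are hydrophilic and protect membranes and enzymes while cells lose water. The 10 genes cover 4 kinds: proteins of the chloroplast stroma and inner envelope (COR15A, COR15B, COR414-TM1), dehydrins (COR47, ERD10, LTI30, RAB18), the small alanine-rich proteins KIN1 and KIN2, and COR78, also named RD29A or LTI78.

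Levels are given as log2 of the spot signal minus log2 of the 75th percentile of the signal of that array, so that 0 is the level of that percentile, and levels of different genes are not comparable. A difference is the difference of group means on this scale ± SE from limma. It passed the test where the p-value, adjusted by the Benjamini-Hochberg method over all tested loci, was below 0.05. ORE15 checked the labels: it averaged 2.70 in ore15-1D, -7.41 in ore15-2, where 1 of 2 arrays was well above background, and -4.84 in Col, and the difference of 7.55 ± 0.67 between ore15-1D and Col passed (limma adjusted p = 0.00546). The difference of -2.56 ± 0.67 between ore15-2 and Col did not pass (limma adjusted p = 0.126). All 5 leaf photosynthesis markers were well above background on every array, and none of 3 shoot meristem markers was on any. Markers of other organs were not all absent. Of 4 root markers, 3 were well above background on each Col and ore15-2 array and 1 on each ore15-1D array. Of 4 seed markers, 1 was on each ore15-1D array, 1 and 4 on the Col arrays, and 3 and 2 on the ore15-2 arrays. Of 3 flower markers, 1 or 2 were on each array. The 75th percentile was 1249 and 1338 in ore15-1D, 809 and 747 in ore15-2, and 927 and 859 in Col. One slide held both ore15-1D arrays and Col replicate 1, and the other held both ore15-2 arrays and Col replicate 2. Each mutant was therefore compared with 1 Col array on its own slide and 1 on the other, and the within-slide values are given for each of the 10 genes. For the pathway genes and markers named, the text says which calls were lost with slide as a block in the fit. With that block 3886 of 20286 loci passed in ore15-1D and 1 of 20284 in ore15-2, so a call lost in ore15-2 says little about the gene. Both arrays of a mutant share a slide, so the blocked difference is that from the Col array of the same slide. The 3 calls of COR genes in ore15-1D were kept with that block, and the 1 call in ore15-2 was not. With the block these 3 calls thus rest on Col replicate 1, the higher Col array for 9 of the 10 genes, these 3 among them.

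In ore15-1D leaves COR414-TM1, COR15B and COR47 fell, and none of the 10 genes rose. The falls were 2.58-fold for COR414-TM1, 2.07-fold for COR15B and 1.42-fold for COR47. In this comparison 40.6% of the 20286 tested loci passed, 18.6% as higher and 22.0% as lower, so 3 of 10 is below that share. In ore15-2 leaves LTI30 fell 1.56-fold and the other 9 did not pass, against 3.73% of loci that passed in either direction, 2.16% as higher and 1.57% as lower. In ore15-2 the differences that missed the threshold were nevertheless wide: COR15B, COR78, KIN1 and KIN2 had means more than 2-fold below Col, and RAB18 had a mean more than 2-fold above it. The median difference over the 10 genes was -0.29 in ore15-1D and -0.42 in ore15-2, beside -0.01 and 0.01 over all tested loci. Both comparisons use the same 2 Col arrays. The 3 calls of ore15-1D depend on the scaling and on single arrays: with quantile scaling COR414-TM1 passed and COR15B (adjusted p = 0.0540) and COR47 (adjusted p = 0.0766) did not. The 3 calls were lost without ore15-1D replicate 1 or 2, where 1 array stood for the genotype, as were most calls over all loci. That loss thus says little about these 3 genes. Without replicate 1 and without replicate 2, COR414-TM1 gave -1.24 and -1.49, COR15B -0.84 and -1.26, and COR47 -0.48 and -0.54. With normexp background correction and the 75th percentile none of the 3 passed, as for every one of the 20286 loci.

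**Figure D1:**
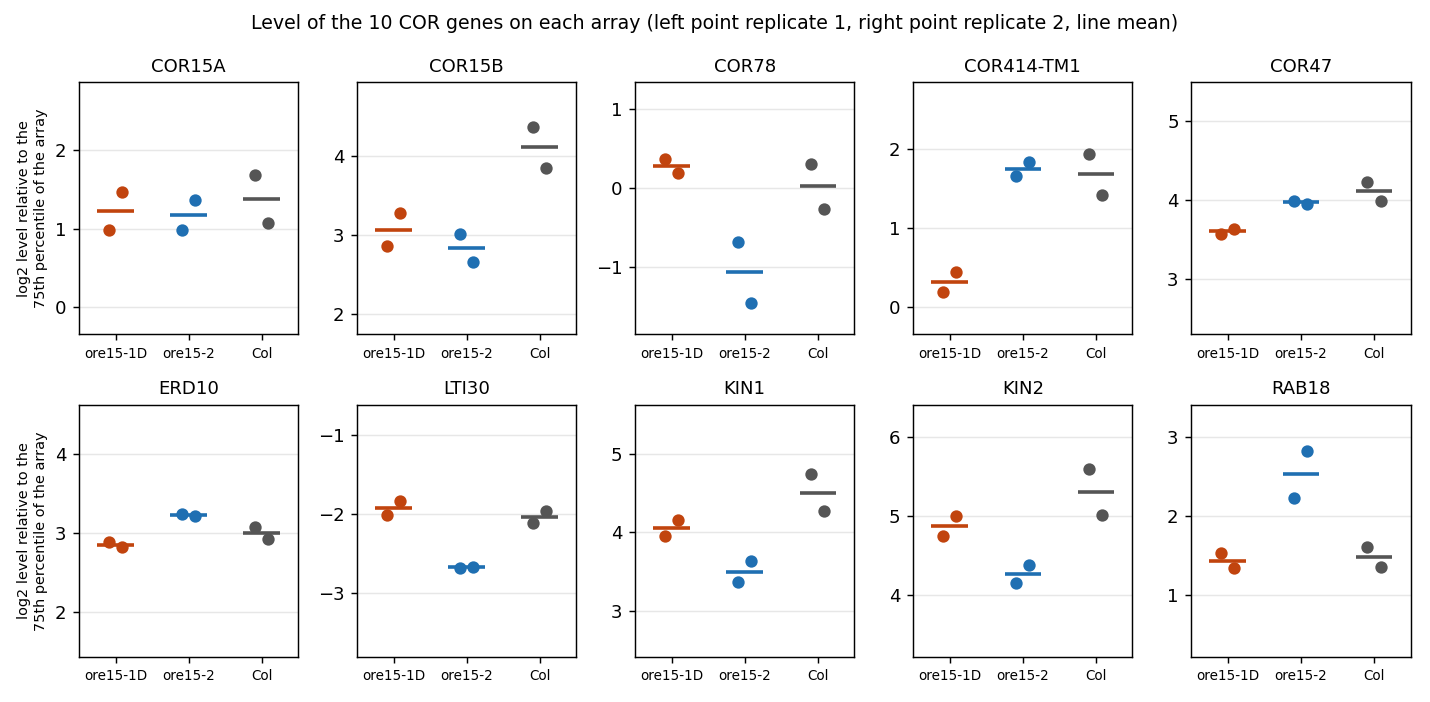
Level of each COR gene on each array, as log2 relative to the 75th percentile of that array (y axis, the same span of log2 units in every panel), for ore15-1D, ore15-2 and Col; points are arrays with replicate 1 at the left, and lines are group means. COR414-TM1 is low in both ore15-1D arrays only, LTI30 and COR78 are low in both ore15-2 arrays, and COR15B is low in all 4 mutant arrays.

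COR15A and COR15B are small, closely related proteins of the chloroplast stroma, known to stabilise chloroplast membranes during freezing, and their genes lie next to each other on chromosome 2. The COR15B probe (chr2:17709271-17709330, TAIR10) gave 2.86 and 3.28 in ore15-1D, 3.01 and 2.66 in ore15-2, and 4.37 and 3.86 in Col. All 4 mutant arrays lay below both Col arrays. The difference was -1.05 ± 0.25 in ore15-1D (adjusted p = 0.0313) and -1.28 ± 0.25 in ore15-2 (adjusted p = 0.0739), with within-slide values of -1.30 in ore15-1D and -1.02 in ore15-2. Without Col replicate 1 the ore15-1D difference was -0.79 and no longer passed (adjusted p = 0.0900).

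The COR15A probe (chr2:17711387-17711446) gave 0.98 and 1.46 in ore15-1D, 0.98 and 1.37 in ore15-2, and 1.68 and 1.07 in Col, and the 3 genotypes overlapped. Its differences were -0.16 ± 0.29 in ore15-1D and -0.20 ± 0.29 in ore15-2, within the spread between arrays (limma adjusted p = 0.681 and 0.701). Within slides they were -0.46 in ore15-1D and 0.10 in ore15-2, the last with the opposite sign. The log2 ratio of the COR15B to the COR15A signal was 1.88 and 1.82 in ore15-1D, 2.03 and 1.29 in ore15-2, and 2.69 and 2.79 in Col, so it was lower on all 4 mutant arrays than on both Col arrays; this ratio was not tested. Each probe matched 1 locus in the deposited element table, but cross-hybridisation between so similar transcripts was not tested.

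COR414-TM1, listed in RefSeq as COR413IM1, encodes a membrane-spanning protein of the chloroplast inner envelope. Its probe (chr1:10288400-10288459) gave 0.19 and 0.45 in ore15-1D, 1.66 and 1.84 in ore15-2, and 1.95 and 1.43 in Col. Both ore15-1D arrays lay below every other array, while ore15-2 and Col overlapped. The difference was -1.37 ± 0.21 in ore15-1D (adjusted p = 0.0116), with -1.63 within the slide, and 0.06 ± 0.21 in ore15-2 (adjusted p = 0.875), with 0.32 within the slide. Without Col replicate 1 the ore15-1D difference of COR414-TM1 was -1.11. Its neighbour COR413IM2 (AT1G29390), which encodes the related envelope protein, gave 1.99 and 2.03 in ore15-1D, 3.53 and 3.70 in ore15-2, and 2.61 and 2.43 in Col. COR413IM2 fell in ore15-1D (-0.51 ± 0.11, adjusted p = 0.0232) and rose in ore15-2 (1.10 ± 0.11, adjusted p = 0.0223). The fall was kept with slide as a block (adjusted p = 0.0476). The rise was not (adjusted p = 0.0870), but 1 of 20284 loci passed in ore15-2 with that block.

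The dehydrins are proteins with lysine-rich K segments that coat membranes and proteins as water is lost. COR47 and ERD10 are acidic dehydrins encoded by neighbouring genes on chromosome 1. COR47 (chr1:7084729-7084788) gave 3.57 and 3.63 in ore15-1D, 3.99 and 3.95 in ore15-2, and 4.23 and 3.99 in Col. Both ore15-1D arrays were the lowest of the 6, and the difference was -0.51 ± 0.11 (adjusted p = 0.0231), with -0.63 within the slide. It was -0.14 ± 0.11 in ore15-2 (adjusted p = 0.485), with -0.018 within the slide. Without Col replicate 1 the ore15-1D difference was -0.39 and missed the threshold (adjusted p = 0.0545).

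COR47 has 3 probes, and they did not give the same picture in ore15-2. In a fit over all 27804 tested probes, in which 21.4% passed as lower in ore15-1D and 1.58% in ore15-2, the brightest probe (described above), chr1:7085353-7085412 and chr1:7085508-7085567 gave -0.51 ± 0.11, -0.49 ± 0.13 and -0.60 ± 0.10 in ore15-1D, and all 3 passed (limma adjusted p = 0.0237, 0.0410 and 0.0124). In ore15-2 these probes gave -0.14 ± 0.11, -0.58 ± 0.13 and -0.56 ± 0.10, and none passed (adjusted p = 0.496, 0.0972 and 0.0553). The ore15-2 value of COR47 thus depends on the probe read.

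ERD10 did not pass against Col in either mutant. Its brightest probe (chr1:7088299-7088358) gave 2.89 and 2.82 in ore15-1D, 3.24 and 3.22 in ore15-2, and 3.08 and 2.93 in Col, so the Col arrays lay between those of the mutants without overlap. The differences from Col were -0.15 ± 0.09 in ore15-1D (adjusted p = 0.219) and 0.22 ± 0.09 in ore15-2 (adjusted p = 0.242), with -0.23 and 0.30 within slides. A second ERD10 probe (chr1:7088440-7088499) gave -0.37 ± 0.12 and 0.12 ± 0.12 for the same 2 differences, and neither passed.

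LTI30 is a dehydrin built mainly of K segments and known to bind membranes. Its probe (chr3:18941327-18941386) gave -2.01 and -1.83 in ore15-1D, -2.68 and -2.67 in ore15-2, and -2.11 and -1.97 in Col. Both ore15-2 arrays lay below all the others, and ore15-1D overlapped Col. LTI30 fell in ore15-2 (-0.64 ± 0.10, adjusted p = 0.0494), with -0.71 within the slide, and differed by 0.11 ± 0.10 in ore15-1D (adjusted p = 0.399), with 0.19 within the slide. That call is close to the threshold: it held in 4 of 19 alternative settings, while the direction was the same in all 19. Of these settings, the background filters, the mean of probes, the replicate block and the trend left its difference at -0.64, so its direction could not change there. Leaving out either ore15-1D array and fitting only the compared genotypes gave the same result for LTI30. It did not pass when any 1 of the 6 arrays was left out, with differences from -0.71 to -0.57. That says little about LTI30 itself where hardly any locus passed, as without either ore15-1D array, Col replicate 1 or ore15-2 replicate 2. Its chromosomal neighbour XERO1, another dehydrin gene, was well above background on none of the 6 arrays.

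RAB18 is the classical dehydrin marker of abscisic acid response and is known for expression in guard cells. The brightest of its 4 probes (chr5:26518359-26518418) gave 1.53 and 1.34 in ore15-1D, 2.23 and 2.83 in ore15-2, and 1.60 and 1.35 in Col. Both ore15-2 arrays lay above all the others, and ore15-1D overlapped Col. The difference was 1.05 ± 0.23 in ore15-2 (adjusted p = 0.0888), with 1.18 within the slide, and -0.04 ± 0.23 in ore15-1D (adjusted p = 0.895), with -0.17 within the slide. The 3 guard cell markers KAT1, MYB60 and FAMA were well above background on all arrays, with summed signals of 1507 and 1746 in ore15-1D, 2773 and 3129 in ore15-2, and 2584 and 2565 in Col. On the scaled levels all 3 markers fell in ore15-1D (KAT1 by 1.75 on the log2 scale), beside 22.0% of loci that passed as lower, and none passed in ore15-2. FAMA did not pass in ore15-1D with slide as a block (adjusted p = 0.0592). The part of these markers in the RAB18 values was not tested. In these bulk leaf samples fewer cells of a type and less RNA per cell cannot be told apart.

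The probes of RAB18 disagreed in direction. In the fit over all probes, chr5:26518620-26518679 and chr5:26519129-26519188 gave 1.18 ± 0.22 and 0.98 ± 0.18 in ore15-2 (adjusted p = 0.0664 and 0.0639), close to the brightest probe. The remaining probe, chr5:26519026-26519085, gave 0.92 and 1.24 in ore15-1D, 0.26 and -0.25 in ore15-2, and 1.92 and 2.29 in Col. At this probe both mutants lay below Col on every array, and it passed as lower in both, with -1.02 ± 0.24 in ore15-1D (adjusted p = 0.0280) and -2.10 ± 0.24 in ore15-2 (adjusted p = 0.0241). It starts 667 bases from the start of the brightest probe and 103 bases from that of its nearest neighbour. No source used here gives the strand that each probe reads, and the transcript behind this probe was not determined.

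**Figure D2:**
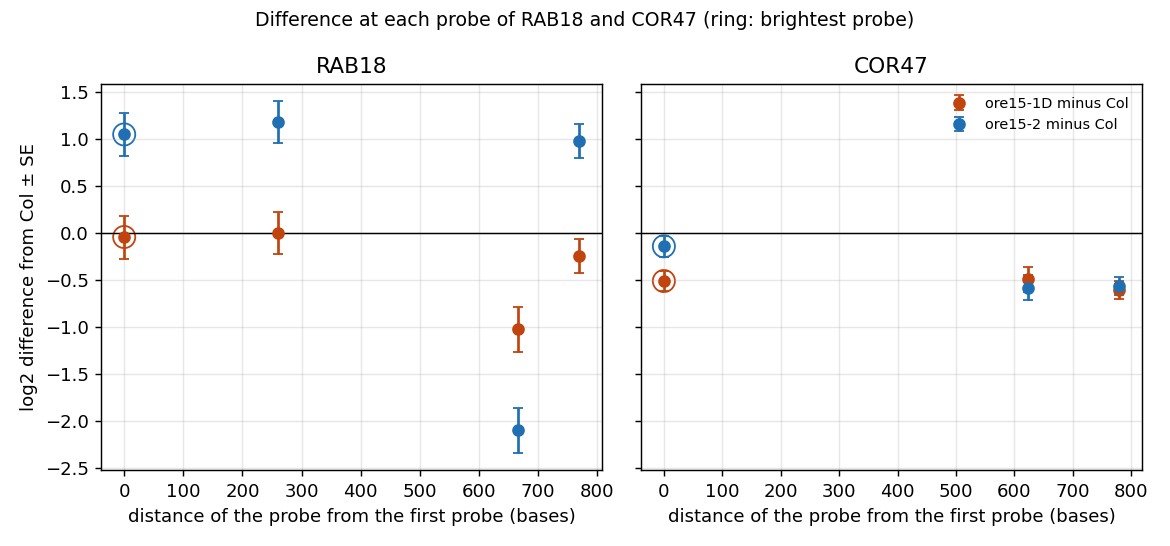
Log2 difference from Col ± SE (y axis) at each probe of RAB18 (left) and COR47 (right) for ore15-1D and ore15-2, against the distance of the probe from the first one in bases (x axis); rings mark the brightest probe. At RAB18, 3 probes lie between 0.98 and 1.18 in ore15-2 and the fourth at -2.10, and at COR47 the ore15-1D values lie between -0.60 and -0.49.

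KIN1 and KIN2 are neighbouring genes on chromosome 5 for small alanine-rich proteins, compared in the past with fish antifreeze proteins. KIN1 (chr5:5210454-5210513) gave 3.95 and 4.15 in ore15-1D, 3.36 and 3.64 in ore15-2, and 4.74 and 4.27 in Col. KIN2 (chr5:5212512-5212571) gave 4.74 and 4.99 in ore15-1D, 4.15 and 4.37 in ore15-2, and 5.60 and 5.01 in Col. Both genes followed the same order without overlap, with ore15-2 lowest and Col highest. The ore15-2 differences were -1.002 ± 0.20 for KIN1 and -1.04 ± 0.23 for KIN2 (limma adjusted p = 0.0759 and 0.0900), and the ore15-1D differences were -0.45 ± 0.20 and -0.43 ± 0.23 (limma adjusted p = 0.129 and 0.184). Within slides the 4 values ranged from -0.77 to -0.69. The log2 ratio of the KIN1 to the KIN2 signal stayed between -0.86 and -0.73 on all 6 arrays, and cross-hybridisation between these near-identical genes was not tested. A second KIN1 probe was well above background on 2 of 6 arrays and was not tested.

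COR78 is the gene whose promoter, with both dehydration-responsive and abscisic acid responsive elements, is the common reporter of cold, drought and abscisic acid signals. Its probe (chr5:21242961-21243020) gave 0.36 and 0.18 in ore15-1D, -0.69 and -1.46 in ore15-2, and 0.31 and -0.27 in Col. The ore15-1D arrays overlapped Col, and both ore15-2 arrays lay below every other array. The differences were 0.25 ± 0.32 in ore15-1D (adjusted p = 0.548) and -1.09 ± 0.32 in ore15-2 (adjusted p = 0.152), with -0.04 and -0.81 within slides. A second, dimmer COR78 probe gave 1.10 ± 0.44 in ore15-1D and -0.65 ± 0.44 in ore15-2, and neither passed. Its neighbour RD29B, an abscisic acid responsive gene, was well above background on 1 of 6 arrays and was not tested.

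**Figure D3:**
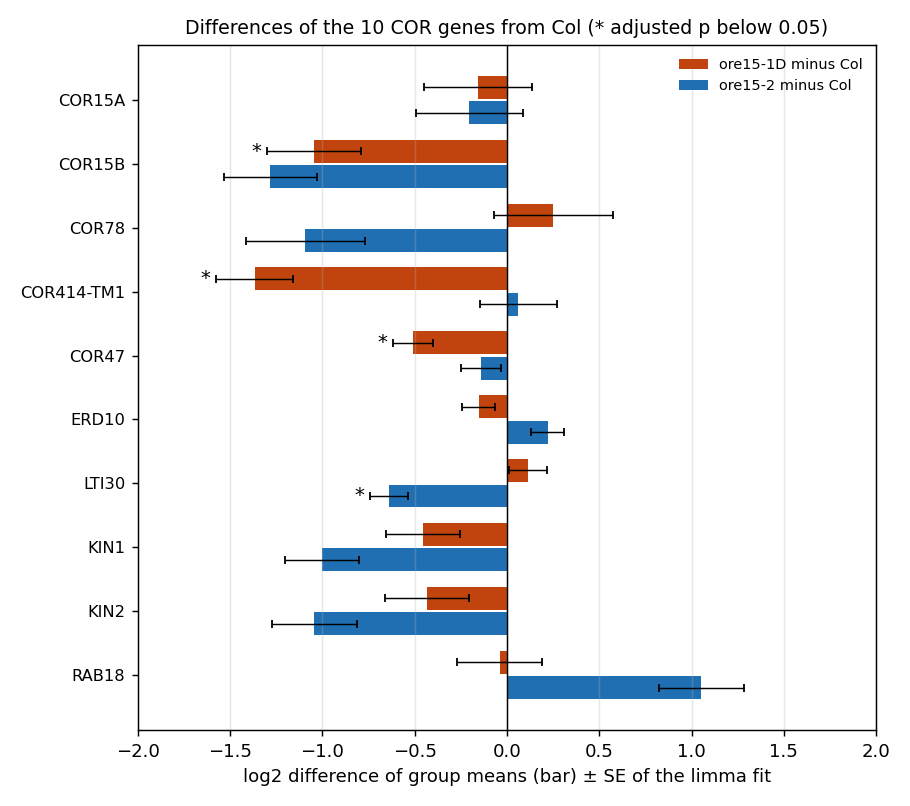
Log2 difference of the group means from Col (x axis; bars) ± SE of the limma fit for each COR gene in ore15-1D and ore15-2, with an asterisk where the adjusted p was below 0.05. Asterisks stand at COR15B, COR414-TM1 and COR47 in ore15-1D and at LTI30 in ore15-2, and RAB18 has the one long bar to the right, in ore15-2.

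At an unadjusted p below 0.05, 3 of 10 genes passed in ore15-1D, beside 52.7% of loci, and 6 of 10 in ore15-2, beside 22.3% of loci; the 6 were COR15B, COR78, LTI30, KIN1, KIN2 and RAB18. The arrays of the mutant and of Col did not overlap for 6 of 10 genes in ore15-1D, beside 80.4% of loci, and for 7 of 10 in ore15-2, beside 52.3% of loci. The 75th percentile used for scaling was highest in ore15-1D. Before scaling, the mean log2 signal in ore15-1D was below Col for 2 of 10 genes, COR414-TM1 (-0.83) and COR15B (-0.51), and COR47 signals were 14779 and 16554 in ore15-1D, against 17346 and 13607 in Col. COR414-TM1 was the 1 gene of the 3 whose unscaled ore15-1D and Col signals did not overlap. In ore15-2 the unscaled signal was below Col for 8 of 10 genes, the exceptions being RAB18 (0.85) and ERD10 (0.02).

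The arrays of Col differed from each other at these genes more than at most loci. Col replicate 1 was above Col replicate 2 for 9 of the 10 genes, LTI30 being the exception, with a median gap of 0.49, while 45.8% of tested loci were higher in replicate 1 and the median absolute gap over loci was 0.15. In ore15-1D replicate 1 was the higher for 3 of 10 genes and in ore15-2 for 4 of 10, with median gaps of -0.19 and -0.10. The median absolute gap of the 10 genes exceeded that of all loci in the mutants too, at 0.20 beside 0.09 in ore15-1D and 0.25 beside 0.16 in ore15-2. As the Col arrays lay on different slides, a difference between Col samples and one between slides cannot be told apart.

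Set directly against ore15-2, ore15-1D leaves had higher COR78 and LTI30 and lower COR414-TM1, RAB18, COR47 and ERD10. That is 6 of 10 genes, beside 55.7% of loci, 26.1% as higher and 29.6% as lower. COR414-TM1 differed by -1.43 ± 0.21 (adjusted p = 0.00641), RAB18 by -1.09 ± 0.23 (adjusted p = 0.0159), COR78 by 1.34 ± 0.32 (adjusted p = 0.0225) and LTI30 by 0.75 ± 0.10 (adjusted p = 0.00567). COR47 and ERD10 each differed by -0.37 (± 0.11 and ± 0.09, limma adjusted p = 0.0390 and 0.0226), but the other COR47 probes gave 0.09 ± 0.13 and -0.04 ± 0.10. KIN1 (0.55 ± 0.20, adjusted p = 0.0708) and KIN2 (0.61 ± 0.23, adjusted p = 0.0756) did not pass, nor did COR15A and COR15B. With quantile scaling the split of the 6 calls was 4 higher and 2 lower in place of 2 and 4, as KIN1 and KIN2 passed and COR47 and ERD10 did not. These alleles share no slide, and with slide as a block none of the 10 genes and none of the 20286 loci passed, beside 5 genes and 7509 loci at an unadjusted limma p below 0.05.

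Regulators upstream of the COR genes were read from lists of known genes. Of 17 cold regulators, 2 rose and 3 fell in ore15-1D (median -0.70), and 0 rose and 1 fell in ore15-2 (median 0.00), beside 40.6% and 3.73% of all loci that passed in these comparisons. CBF1, CBF2 and CBF3, the main cold activators, did not pass in either mutant. CBF1 gave -1.62 and -0.32 in ore15-1D, 0.32 and 0.38 in ore15-2, and 0.20 and -0.75 in Col. CBF2 gave -0.68 and 0.56 in ore15-1D, 0.92 and 1.16 in ore15-2, and 0.80 and 0.49 in Col. CBF3 gave -0.42 and 0.53 in ore15-1D, -0.41 and 0.18 in ore15-2, and 0.21 and -0.73 in Col. Replicates of a genotype were up to 1.3 apart for these genes, and their differences from Col lay between -0.70 and 0.62. Within slides CBF1 was at -1.17 in ore15-1D and 1.09 in ore15-2, CBF2 at -0.86 and 0.55, and CBF3 at -0.16 and 0.62. The DREB2 genes are activators under drought and heat. In ore15-1D DREB2A fell by 1.80 ± 0.40 on the log2 scale (adjusted p = 0.0248), DREB2B by 1.25 ± 0.26 (adjusted p = 0.0220) and DREB2C by 1.25 ± 0.32 (adjusted p = 0.0366). HOS1, a ubiquitin ligase that restrains cold signalling, rose by 0.48 ± 0.08 (adjusted p = 0.0155). In ore15-2 DREB2C was at least 4.53-fold lower (adjusted p = 0.0403), a bound because neither ore15-2 array was well above background. With slide as a block none of the cold regulators passed in either mutant. Over all loci 3886 of 20286 passed with that block in ore15-1D and 1 of 20284 in ore15-2. DREB2A was then at -2.09 in ore15-1D (limma adjusted p = 0.0563).

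Of 15 tested other cold-induced genes, 2 rose and 6 fell in ore15-1D (median -0.51), and 2 rose and 4 fell in ore15-2 (median -0.29), beside the same 40.6% and 3.73% of loci. COR28 and COR27, which feed back on freezing tolerance and the clock, fell in both mutants. COR28 was at -2.07 ± 0.23 in ore15-1D (adjusted p = 0.00706) and -2.57 ± 0.23 in ore15-2 (adjusted p = 0.0205), where 1 of 2 arrays was well above background. COR27 was at -2.49 ± 0.26 in ore15-1D (adjusted p = 0.00647), with 1 of 2 arrays well above background, and at least 10.6-fold lower in ore15-2 (adjusted p = 0.0182). ERD6, a sugar transporter gene, fell in ore15-1D (-1.59 ± 0.17, adjusted p = 0.00672), and SFR2, which remodels chloroplast membrane lipids during freezing, rose (1.22 ± 0.13, adjusted p = 0.00673). In ore15-2 the RNA-binding protein genes GRP7 and GRP8 fell by 2.74 ± 0.37 and 1.52 ± 0.23 on the log2 scale (limma adjusted p = 0.0357 and 0.0426). With slide as a block 9 of these 15 genes passed in ore15-1D, beside 3886 of 20286 loci, and 0 in ore15-2, beside 1 of 20284. The 9 included GOLS3 and ELIP1, which had not passed without the block, while GOLS1 lost its call.

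Other dehydrin and late embryogenesis abundant (LEA) genes were mostly dim: 4 of 11 were tested, of which RAB28 rose (1.27 ± 0.18, adjusted p = 0.00984) and ERD14 fell (-0.31 ± 0.07, adjusted p = 0.0300) in ore15-1D, and none passed in ore15-2. Of 8 tested dehydration and abscisic acid response genes, 0 rose and 3 fell in ore15-1D (median -0.43), beside 40.6% of loci that passed: the NAC factor gene RD26 (-1.69 ± 0.22, adjusted p = 0.00862), the proline dehydrogenase gene PRODH1 (-1.41 ± 0.35, adjusted p = 0.0326) and the chloroplast protease regulator gene ERD1 (-1.23 ± 0.17, adjusted p = 0.0103). In ore15-2, RD20, a calcium-binding lipid droplet protein gene induced by drought, rose (1.58 ± 0.21, adjusted p = 0.0350), PRODH1 fell (-2.91 ± 0.35, adjusted p = 0.0277), and the median was 0.30. RAB28, RD26 and ERD1 passed in ore15-1D also with slide as a block, while ERD14 (adjusted p = 0.0992) and PRODH1 (-0.95, adjusted p = 0.0686) did not. In ore15-2 RD20 (adjusted p = 0.100) and PRODH1 (adjusted p = 0.0870) did not pass with the block, where 1 of 20284 loci passed.

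Of 9 abscisic acid synthesis and breakdown genes, 1 rose and 2 fell in ore15-1D and none passed in ore15-2, beside 40.6% and 3.73% of loci. Between ore15-1D and ore15-2, 1 was higher and 4 were lower, beside 55.7% of loci. NCED3, the rate-limiting synthesis gene under drought, gave -5.97 and -4.93 in ore15-1D, -2.55 and -1.99 in ore15-2, and -3.60 and -3.17 in Col. The ore15-1D arrays were the lowest and the ore15-2 arrays the highest, with differences of -2.06 ± 0.41 (adjusted p = 0.0199) and 1.11 ± 0.41 (adjusted p = 0.213). CYP707A4, an abscisic acid hydroxylase gene, was at least 4.51-fold lower in ore15-1D (adjusted p = 0.00370), and ABA2, a later synthesis step, rose (0.69 ± 0.14, adjusted p = 0.0191). CYP707A4 passed with slide as a block, and NCED3 (adjusted p = 0.0802) and ABA2 (adjusted p = 0.0556) did not. Of 23 tested receptor and signalling genes, 2 rose and 3 fell in ore15-1D (median 0.10), and 0 rose and 2 fell in ore15-2 (median 0.02), beside the same shares. Between ore15-1D and ore15-2, 6 of these 23 were higher and 5 lower. In ore15-1D the receptor genes PYL2 and PYL1 and the phosphatase gene PP2CA fell, by 1.01, 0.62 and 0.98 on the log2 scale, and the transcription factor gene ABF3 rose by 0.75. In ore15-2 the factors ABI5 (-1.40 ± 0.21, with 1 of 2 arrays well above background) and ABF1 (-1.09 ± 0.15) fell (limma adjusted p = 0.0447 and 0.0360). In ore15-1D PYL2 passed with slide as a block, while PYL1 (adjusted p = 0.0886), PP2CA (adjusted p = 0.0595) and ABF3 (adjusted p = 0.0610) did not. ABI5 (adjusted p = 0.159) and ABF1 (adjusted p = 0.146) did not pass with it in ore15-2, where 1 of 20284 loci passed.

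**Figure D4:**
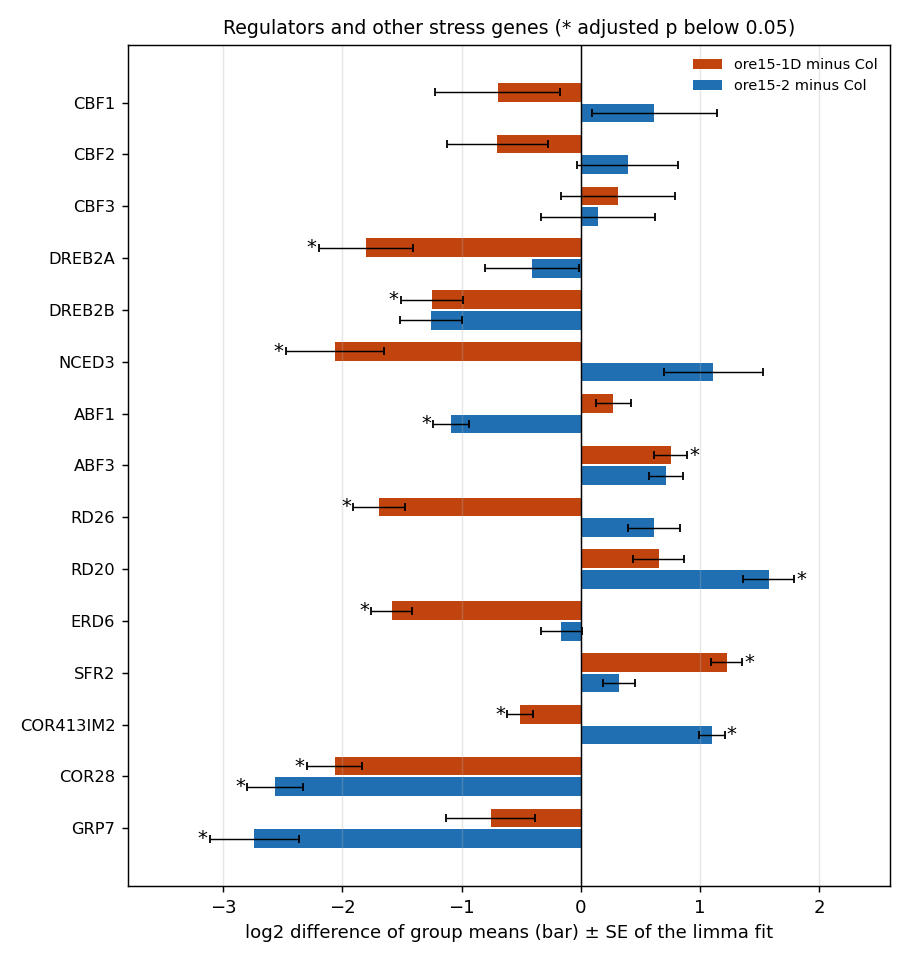
Log2 difference from Col (x axis; bars) ± SE of the limma fit for regulators and other cold or dehydration genes in ore15-1D and ore15-2, with an asterisk where the adjusted p was below 0.05. The CBF bars carry no asterisk, DREB2A and NCED3 have asterisks to the left in ore15-1D, and COR413IM2 has an asterisk on each side; COR28 was well above background on 1 of 2 ore15-2 arrays.

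The clock gates cold induction of COR genes, and samples were taken at a single time of day. Of 7 clock genes, 1 rose and 3 fell in ore15-1D, and 2 rose and 3 fell in ore15-2, beside 40.6% and 3.73% of loci. PRR5, a repressor gene of the afternoon, fell in both, with differences of -1.58 ± 0.23 in ore15-1D (adjusted p = 0.0108) and -3.40 ± 0.23 in ore15-2 (adjusted p = 0.0182). The morning genes LHY and CCA1 rose in ore15-2 by 2.53 ± 0.33 and 1.81 ± 0.24 (limma adjusted p = 0.0336 and 0.0330), and differed by 0.97 ± 0.33 and 0.61 ± 0.24 in ore15-1D (limma adjusted p = 0.0735 and 0.0960). With slide as a block 3 clock genes passed in ore15-1D, PRR5 among them (adjusted p = 0.0484), beside 3886 of 20286 loci. In ore15-2 0 passed, beside 1 of 20284 loci, with limma adjusted p of 0.0870 for PRR5, 0.129 for LHY and 0.127 for CCA1. The part of clock genes in the COR gene values was not tested.

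Markers of leaf cell types and of other tissues changed in ore15-1D. All 5 photosynthesis, all 3 guard cell and both vasculature markers fell in ore15-1D, beside 22.0% of loci that passed as lower. So did 3 of 4 root markers, of which NRT2.1 and IRT1 were not well above background in ore15-1D. The flower marker SEP3 rose in ore15-1D and fell in ore15-2. None of the tested photosynthesis, guard cell, vasculature, root and seed markers passed in ore15-2, beside 3.73% of loci. With slide as a block 3 of 5 photosynthesis, 2 of 3 guard cell, 1 of 2 vasculature and 2 of 3 tested root markers passed in ore15-1D. Over all loci 3886 of 20286 passed with that block. SEP3 passed with it in ore15-1D and not in ore15-2 (adjusted p = 0.0884), where 1 of 20284 loci passed. Summed vasculature signals were 5567 and 6029 in ore15-1D, 6093 and 7635 in ore15-2, and 7802 and 8397 in Col; the part of any of these markers in the COR gene values was not tested.

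The tested loci most like the COR genes were found by Pearson correlation over the 6 arrays, which hold 3 pairs of like samples, so many loci reach high values. Most like the mean of the 10 genes were AT1G75180 (r = 0.994), AT4G35080 (0.988), AT2G29270 (0.987), AT3G09320 (0.982) and AT4G12070 (0.974), and none of the 5 passed against Col in either mutant. Most like COR414-TM1 were HTA12 (r = 0.997), AT5G67350 (0.996), AT1G33600 (0.996), BR6OX1 (0.995) and MHK (0.995). All 5 of these fell in ore15-1D, from MHK (-0.53 ± 0.12, limma adjusted p = 0.0252) to BR6OX1 (-3.21 ± 0.42, limma adjusted p = 0.00870). Their ore15-2 differences lay between 0.01 and 0.21, and none passed. Both sets of loci were chosen by likeness over the same 6 arrays. Their differences thus follow from that choice and are description only.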

How the data were processed

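Cy3-labelled total RNA of leaves was read on single-colour Agilent arrays, per the labels. The deposited scanner files hold linear spot intensity from Feature Extraction 11.5 (Agilent's software, named in the submitters' processing notes), and their processed signal had its background removed by that software, per the file headers. The log2 tables deposited by the authors, of unstated scaling, served as an alternative. Groups came from the sample labels. The deposited element table (TAIR10 loci by BLASTN) paired probes with loci, and RefSeq (TAIR10.1) gave symbols. Promoter and protein sequences were not used here.

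After control and outlier spots were dropped, the 75th percentile of each array was subtracted from the log2 processed signal. A locus was read at its brightest probe and kept where, in 1 genotype or more, both arrays were well above background (20290 loci). limma 3.58.1 in R 4.3.3 (lmFit and eBayes, two-sided, 3 residual and 1.80 prior degrees of freedom) was fitted to all 6 arrays. In simulated data for ore15-1D against Col over 20226 loci, the fit recovered 53 of 100 loci changed by 1 log2 unit and 74 of 100 changed by 2, with 5 false calls. The simulated share of changed loci was far below the 40.6% that passed in the real comparison. The Benjamini-Hochberg adjustment depends on that share, so these rates do not give the sensitivity of the real fit, and none is given for ore15-2. The number of arrays limits the precision. For a bound ("at least N-fold"), the dim genotype was set to its own signal or, if that was lower, to the lowest signal well above background.

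The genes and the 7 lists were chosen with earlier results of these data known. Named list genes are up to 4 of a list with the largest difference that passed in a comparison, plus CBF1, CBF2, CBF3 and RD29B; COR413IM2 in ore15-1D, and the morning clock genes in ore15-1D, were named knowing their values. The alternatives changed the scaling (quantile), the background (normexp, offset 50, on the median spot signal, with either scaling), the background filter (none, or all arrays), the probe rule (mean), the slide (fixed block, random block, 1 slide alone), the replicate number (block), the genotypes fitted, the variance model (a trend) or the source (the authors' table), or left out 1 array. For the lists and list genes they were chosen after seeing the data.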

Additional observations from a re-analysis of the deposited data

How the results depend on the processing

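The main limits are 2 arrays per genotype and slides that each hold 1 mutant. Without an array its group has 1 sample, assumed to vary like the others. Many settings moved the count over all loci as well, so these counts of COR genes are to be read beside the counts over all loci below. With quantile scaling 8349 of 20286 loci passed in ore15-1D against Col, in place of 8239. With the mean of probes 682 of 20305 passed in ore15-2 against Col, and 757 of 20284 in the main fit. Of the COR genes, 3 passed in ore15-1D against Col. This count was 1 with quantile scaling, 0 with normexp and the 75th percentile, 5 on slide 1 alone (KIN1 and KIN2 added) and 0 to 3 without an array, with 0 without either ore15-1D array and 1 without Col replicate 1. The 1 call of ore15-2 against Col, LTI30, became 0 with normexp and the 75th percentile, with no background filter, with the mean of probes, with slide as a fixed block, on slide 2 alone and with only the compared genotypes. The count was 4 with normexp and quantile scaling and 5 with a trend in the spread, where COR15B, KIN1, KIN2 and RAB18 passed in both, and 0 to 1 without an array. The 6 calls of ore15-1D against ore15-2 became 0 with normexp and the 75th percentile and 0 with slide as a fixed block, and 2 to 8 without an array. The cause of these changes was not tested.

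Same-numbered arrays of different genotypes did not deviate together (correlations of -0.09, -0.01 and 0.13), and the main fit did not pair them. These correlations cannot exclude pairing by number, as the Col arrays lay on different slides and those of each mutant on the same slide. With the replicate block 2 COR genes passed in ore15-1D, 0 in ore15-2 and 5 between the alleles, in place of 3, 1 and 6. Over all loci 6544 of 20286, 3 of 20284 and 10090 of 20286 then passed, in place of 8239, 757 and 11294.

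Over all loci, 8239 passed in ore15-1D against Col, but 3886 with slide as a fixed block, 813 and 1073 without ore15-1D replicate 1 and 2, 3879 without Col replicate 2, and by limma 0 with normexp and the 75th percentile (2247 at an unadjusted p below 0.05), which moved the median of all loci to -0.25 in ore15-1D and -0.21 in ore15-2. In ore15-2, 757 passed, but by limma 0 with that setting (726 unadjusted), with no filter (4349 unadjusted), on slide 2 alone (2331 unadjusted), with only the compared genotypes (3372 unadjusted) or without ore15-2 replicate 2 (3269 unadjusted). There 1 passed with slide as a fixed block or without Col replicate 1, 3 with the replicate block, 1210 with normexp and quantile scaling, 1154 with a trend and 1341 without ore15-2 replicate 1. Between the alleles 11294 passed, but 5025 and 4769 without ore15-1D replicate 1 and 2, and by limma 0 with normexp and the 75th percentile (2830 unadjusted) or slide as a block.

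Signs turned for differences that had not passed, except PRR9, RAB28 and ERD14 in ore15-1D and COR47 between the alleles. With normexp and the 75th percentile, ore15-1D against Col gave 0.17 for COR15A, 0.25 for ERD10, -0.70 for LTI30, 0.0055 for KIN1, 0.33 for RAB18, -0.53 for PRR9, -0.70 for RAB28 and 0.0747 for ERD14. It gave 0.18 for COR15A and 0.30 for COR47 in ore15-2, and -0.0081 for COR15A between the alleles. RAB18 in ore15-1D was 0.0016 with quantile scaling and 0.0515 with normexp and quantile scaling. With slide as a block or within the slide, ore15-1D gave -0.0356 for COR78 and -0.16 for CBF3, and ore15-2 gave 0.10 for COR15A. Between the alleles COR15A was -0.57 and COR15B -0.28 with slide as a block, KIN1 was -0.0456 with the mean of probes, and COR47 was 0.021 in the authors' deposited table. Without an array, ore15-1D ranged from -0.46 to 0.15 for COR15A, -0.17 to 0.0864 for RAB18, -0.0356 to 0.54 for COR78 and -0.16 to 0.79 for CBF3. In ore15-2 it ranged from -0.51 to 0.10 for COR15A, -0.20 to 0.32 for COR414-TM1 and -0.33 to 0.62 for CBF3, and between the alleles from -0.19 to 0.29 for COR15A. COR414-TM1 in ore15-1D kept its direction in 19 of 19 settings and its call in 16, but these settings are not independent. The background filters, mean of probes, replicate block, trend, genotypes fitted and leaving out either ore15-2 array left its difference at -1.37. Their direction could thus not change. With slide as a fixed block, on slide 1 alone and without Col replicate 2 it was -1.63 each time. The ore15-1D counts ranged from 0 to 7 for the cold regulators and 0 to 11 for other cold-induced genes.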
